A study of Mus musculus with 4 samples.

Results

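Heat shock proteins and their co-chaperones were examined in the ureter of adult mice, as the set of genes with a single annotated symbol of the Hspa, Hspb, Hspd, Hspe, Hsph, Hsp90, Dnaja, Dnajb, Dnajc, Bag1 to Bag6 or Hsf1 and Hsf2 series. The set held 75 of the 18193 genes named on the array and 178 of the 45037 probe sets tested. Hsf1, Hsp90ab1 and Dnajc19 are not analysed here. Ureter, the duct whose muscle drives urine toward the bladder, was taken from male offspring of FVB/N females and males carrying the SMGA/EGFP transgene, a reporter in which green fluorescence marks smooth muscle gamma actin, at Theiler stage 28, and was dissected between kidney and bladder by that fluorescence. The 4 samples form 1 group, were not pooled, and are called replicates 1 to 4 in an order without meaning. Nothing in the labels says that each came from a separate animal, so p-values measure only the spread between these samples, which may be technical.

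Heat shock proteins are molecular chaperones, which bind unfolded stretches of other proteins and help them fold, assemble, cross membranes or be destroyed. Hsp70 proteins do so in cycles of ATP hydrolysis, which J proteins (the Dnaj genes) start by delivering a client, and which nucleotide exchange factors of the Hsp110 and Bag groups end by releasing ADP. Hsp90 acts later on receptors and kinases, small heat shock proteins hold unfolded proteins without ATP, and separate sets serve the endoplasmic reticulum and mitochondria. Heat shock factors switch on the inducible members through short repeats in their promoters, and a different element does so for the endoplasmic reticulum set when unfolded protein collects there. In smooth muscle, small heat shock proteins also associate with actin filaments.

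Levels are log2(intensity + 16), and each gene is represented by whichever of its probe sets was brightest on average. A gene was called above background if the mean of any of its probe sets over the 4 arrays lay above the arrays' own thresholds in limma's moderated one-sided test with a Benjamini-Hochberg adjusted p under 0.05. Each array's threshold was set so that 95% of 86 probe sets for odorant, pheromone and taste receptors lay at or under it. Levels of different genes come from different probes and are not compared. Precision is limited by having 4 arrays.

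Most of the chaperone system was present in the ureter samples. Of the 75 members 63 (84%) were above background, against 57.9% of all named genes, and at the level of probe sets 117 of 178 were, against 40.9% of all probe sets. Here and below, shares of all probe sets include those with no symbol or several, whereas each member probe set has a single symbol. All 63 lay over the threshold in each of the 4 arrays, with the brightest probe set. Among the 48 members measured by several probe sets, 27 had some above and some not above background, so the count rests in part on the brightest probe set of a gene. The levels of 7 members come from probe sets whose identifiers mark them as shared by several transcripts. By family, all 3 Hsp110 genes, both Hsp90 genes, both chaperonin genes, all 4 class A J proteins and all 6 Bag genes passed, along with 9 of 11 Hsp70 genes, 9 of 13 class B and 24 of 25 class C J proteins and 4 of 8 genes with Hspb symbols. The 1 heat shock factor measured, Hsf2, did not.

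Members differed little between samples on their brightest probe sets. The median range, highest minus lowest of the 4 samples, was 0.78 log2 units over the 63 members above background and 0.91 over all 10526 named genes above background. Only 2 of the 63 members, Dnajc6 and Hspb6, had a range of 2 log2 units or more, against 9.81% of all named genes above background, and 18 had a range under 0.5, against 16.7%. Dnajc7, a co-chaperone that links Hsp70 with Hsp90, had 12.64, 12.68, 12.63 and 12.67 in replicates 1 to 4. Its range of 0.05 was the smallest among the 63. These ranges are of the brightest probe sets, and the named genes were not matched to the members by level. With the median over a gene's probe sets, 5 of 55 members above background had a range of 2 or more. Some dimmer probe sets above background also had a range of 2 or more. These were 1 each of Dnajc3 (3.46), Hsp90b1 (3.14), Dnaja4 (3.01), Dnajc18 (2.63), Hspa8 (2.26), Hsp90aa1 (2.22) and Hspa4l (2.21). An F test set the variance over samples against limma's prior variance for probe sets of like level. After Benjamini-Hochberg adjustment 0 members passed on their brightest probe sets (smallest adjusted p = 0.755), and 0 probe sets of the array did (smallest adjusted p = 0.0651). With 0 probe sets passing on the whole array, the 0 members passing say nothing about the members in particular. At an unadjusted p under 0.05 the test picked 1 member on the brightest probe sets, Dnajc6, against 5.42% of all named genes above background. The dimmer probe sets of Dnajc3 and Hsp90b1 with ranges of 3.46 and 3.14 had unadjusted p of 0.00315 and 0.00943 in that F test. Dnajc6 had 0.0388. Each member above background was highest in some sample. That was replicate 1 for 15, replicate 2 for 21, replicate 3 for 18 and replicate 4 for 9 members, against 23.0%, 25.3%, 27.5% and 24.1% of all named genes above background. The lowest value lay in replicate 1 for 14, replicate 2 for 16, replicate 3 for 12 and replicate 4 for 21 members, against 19.4%, 23.6%, 34.3% and 22.7%. The patterns between samples given below are descriptions of 4 samples, with no test behind them.

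**Figure D1:**
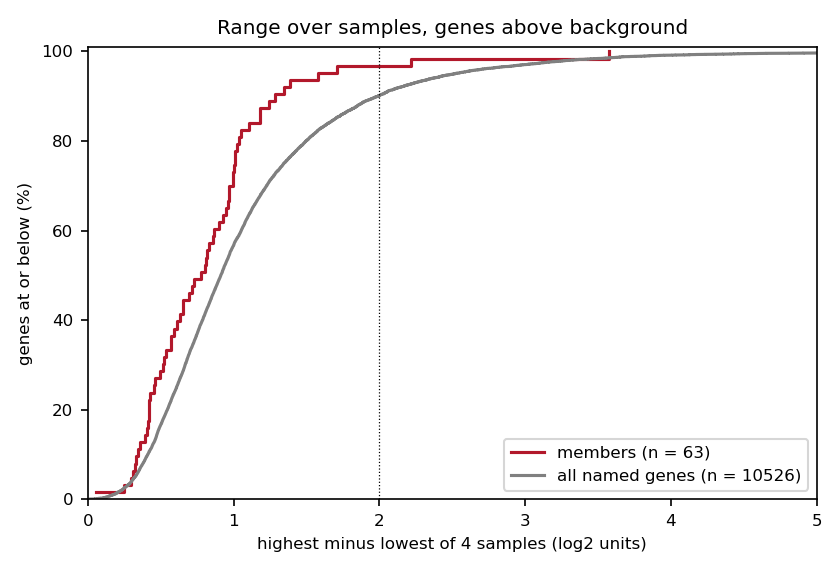
Cumulative share of genes (percent, vertical axis) by range over the 4 samples (log2 units, horizontal axis, shown up to 5) for the 63 members above background (red) and the 10526 named genes above background (grey). The members' curve lies left of the grey one over most of its length, with medians of 0.78 and 0.91, and the dotted line marks 2 log2 units.

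Markers of other tissues differed between the samples. The 7 smooth muscle markers were above background, and 5 of 6 urothelial markers were. The exception was Upk3a, an umbrella cell plaque protein, at 14.91 in replicate 3 but at most 7.03 in the other samples. In replicate 3 all 8 skeletal muscle markers passed the threshold, while replicate 1 had 1 such marker and replicates 2 and 4 had 2 each, with Myh4, a fast myosin, at 16.39 in replicate 3 and at most 4.52 elsewhere. The median fibroblast marker differed from the mean of the rest by -2.13 log2 units in replicate 3. All 5 liver markers passed the threshold in replicates 1 and 3 and 1 did in replicates 2 and 4. All 4 markers of male reproductive tissue did in replicates 1 and 2, against 2 in replicate 3 and 1 in replicate 4. Among these 4, Pbsn had 15.41 in replicate 3, against 8.80 to 9.42 elsewhere. The summed level of the 4 was 12.66, 15.84, 15.42 and 9.38 in replicates 1 to 4. For Gapdh, the ratio of signal near the 3' end to that near the 5' end, which grows as RNA is broken or copied incompletely, was 34.3, 36.9, 31.6 and 18.8 in replicates 1 to 4. In bulk tissue, fewer cells of a type and less RNA per cell cannot be told apart.

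Chaperones of the endoplasmic reticulum were highest in replicate 3. All 8 genes of this list were above background, and 7 of them had their highest value in replicate 3, against 27.5% of all named genes above background. The exception was Hspa13, an Hsp70 of microsomes, at 12.86, 12.99, 12.90 and 12.65 in replicates 1 to 4. The median difference between a sample and the mean of the rest was 0.55 log2 units in replicate 3 over the list, against -0.05 over all named genes above background, and -0.41, 0.03 and -0.27 in replicates 1, 2 and 4. Without replicate 3 the values in replicates 1 and 4 were -0.12 and -0.04, and with the median over a gene's probe sets those in replicates 2 and 4 were -0.30 and -0.07. On the brightest probe sets no gene of the list had a range over 1.05 log2 units. Dimmer probe sets reached 3.46 for Dnajc3, 3.14 for Hsp90b1, 1.95 for Dnajc1, 1.85 for Dnajc10 and 1.48 for Hspa5.

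Hspa5, the Hsp70 of the endoplasmic reticulum lumen also called BiP, had 15.27, 15.54, 16.19 and 15.19 in replicates 1 to 4, a mean of 15.55 ± 0.45 (SD, n = 4). Replicate 3 stood above the other samples on each of its 3 probe sets. Hsp90b1, the Hsp90 of that compartment, had 13.97, 14.42, 14.67 and 14.44. It was lowest in replicate 1 on its brightest probe set, while the second probe set, with 11.34, 10.73, 13.87 and 12.72, was lowest in replicate 2 and again highest in replicate 3.

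The J proteins that work with Hspa5 were likewise highest in replicate 3. Dnajc10, a disulfide reductase that helps clear misfolded glycoproteins, had 13.81, 13.98, 14.86 and 13.91, with the other samples within 0.17 log2 units of each other. Dnajb11, which is bound to Hspa5 and can be secreted with it, had 11.88, 11.61, 12.44 and 11.42. Replicate 3 was again the highest, and replicate 4 the lowest. Dnajb9, which feeds proteins to degradation, had 12.41, 13.00, 13.34 and 12.84, and Dnajc3, an inhibitor of the stress kinase PERK, had 13.46, 13.60, 14.02 and 13.43. A dimmer probe set of Dnajc3 differed far more, at 12.25, 11.80, 15.25 and 13.60, with the same highest sample. Dnajc1, a J protein of the membrane that contacts ribosomes, was low in replicate 1 and otherwise close on its brightest probe set, at 10.94, 11.69, 11.83 and 11.73. Of its dimmer probe sets above background, 1 had 9.81, 10.30, 11.76 and 11.05, highest in replicate 3. Another had 9.85, 9.63, 9.58 and 9.61, highest in replicate 1. Over the 19 probe sets of the list that were above background, 16 (84.2%) were highest in replicate 3, against 30.8% of all probe sets above background.

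**Figure D2:**
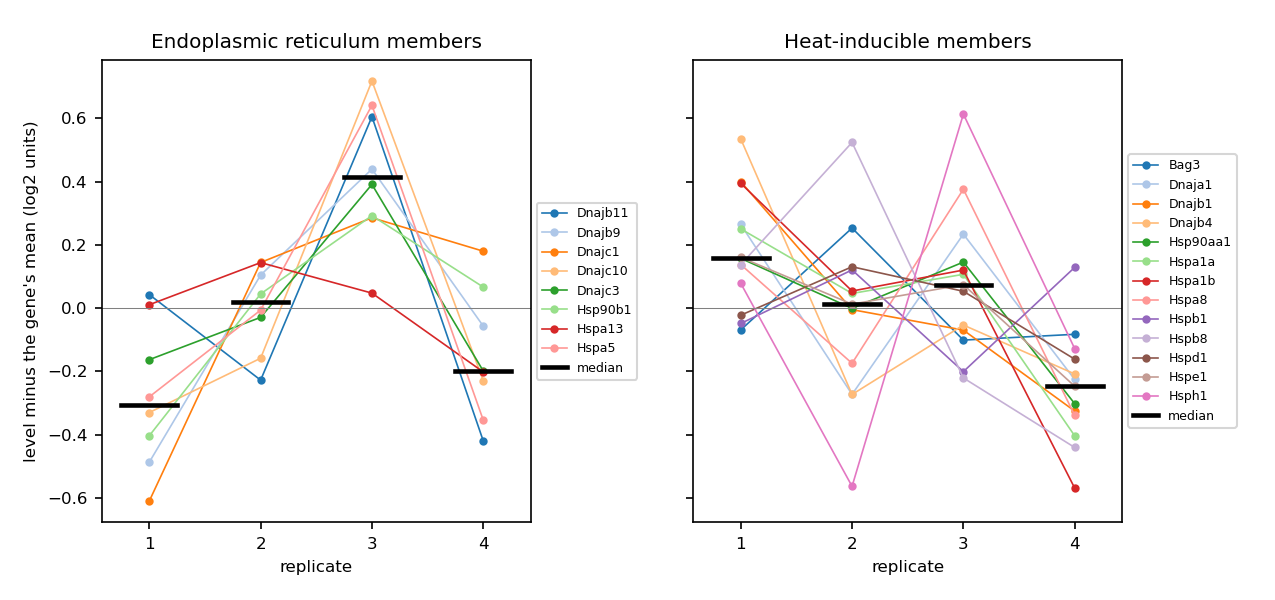
Level of each gene minus its own mean over the 4 samples (log2 units, vertical axis) by replicate (horizontal axis, no order) for the 8 endoplasmic reticulum members (left) and the 13 heat-inducible members (right). Thin lines join the values of a gene and black bars are medians. On the left 7 of 8 genes peak in replicate 3, and on the right 8 of 13 are lowest in replicate 4.

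Promoters of 3 genes of the list carry the endoplasmic reticulum stress element in its full form, CCAAT and CCACG with any 9 bases between them, searched on both strands in windows from 250 bases before to 50 after each start. Those of Hspa5, Hsp90b1 and Dnajc3 are shown because no other member had a match. All 3 genes were highest in replicate 3, but so were Dnajb9, Dnajb11, Dnajc1 and Dnajc10, whose windows hold no match. The sequences are from RefSeq, GRCm38.p6, 5′ to 3′ on the strand of the gene, with the matches in capitals, and lie at chr2:34771970-34772089 on the plus strand, chr10:86705515-86705674 on the minus strand and chr14:118937792-118937891 on the plus strand.
Hspa5: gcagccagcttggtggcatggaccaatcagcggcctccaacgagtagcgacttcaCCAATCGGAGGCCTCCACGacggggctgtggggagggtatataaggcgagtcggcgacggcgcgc
Hsp90b1: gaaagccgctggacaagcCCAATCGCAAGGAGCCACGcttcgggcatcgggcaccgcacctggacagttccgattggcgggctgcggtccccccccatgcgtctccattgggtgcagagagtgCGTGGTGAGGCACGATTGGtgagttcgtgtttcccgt
Dnajc3: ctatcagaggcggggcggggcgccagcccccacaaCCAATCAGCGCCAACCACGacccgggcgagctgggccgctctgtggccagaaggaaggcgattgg
Hspa5 has its match from base -65 to -47 and Dnajc3 from -105 to -87, counted from the start, while Hsp90b1 has 1 in each orientation, from -212 to -194 and from -107 to -89. Among the 7 genes of the list with a promoter in the table, 3 (42.9%) hold the motif, against 0.119% of all 32851 promoters. It was found in 0 of the other members' promoters. The element is known for genes of this compartment, so its share in the list is no independent result. A match is a description of the letters and no evidence of binding in these samples.

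Genes outside the symbol rule that serve the same compartment were also high in replicate 3. All 13 such genes in a wider list of chaperones were above background, against 57.9% of all named genes. Of the 13, 12 had their highest value in replicate 3, against 27.5% of all named genes above background. This subset was put together after the values were seen, and leaves out the collagen chaperone Serpinh1, which was lowest in that sample. The median difference from the mean of the rest was 0.83 log2 units in that sample. Hyou1, an Hsp110 relative of the endoplasmic reticulum, had 9.39, 8.75, 11.86 and 9.77 in replicates 1 to 4. Xbp1, the transcription factor that drives much of this gene set, had 14.68, 14.84, 15.26 and 14.44. The exception was Pdia4, a disulfide isomerase, with 12.07, 10.31, 11.69 and 9.84. Atf4 and Ddit3, transcription factors of the arm of the unfolded protein response that can end in cell death, were not highest there, with 13.39, 12.87, 13.10 and 13.10 for Atf4 and 9.80, 9.88, 9.85 and 10.29 for Ddit3.

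Most secretory cell markers above background, and the skeletal muscle markers, had the same high sample as the endoplasmic reticulum genes. Of 9 secretory cell genes measured, a list added after the values were seen, 5 were above background. Of these, 4 were highest in replicate 3, against 27.5% of all named genes above background. Bhlha15, a transcription factor of secretory cells, had 8.61, 10.17, 12.95 and 10.21, and Pip, a protein of exocrine glands, had 5.30, 13.33, 16.16 and 13.45. The exception was Amy1, an amylase, which was lowest in replicate 3 at 9.07, against 9.40 to 10.47. Dcpp1 and Jchain, not above background over the 4 samples, were not highest there either, with 5.31, 11.50, 8.92 and 11.51 for Dcpp1 and 6.21, 11.17, 8.37 and 8.57 for Jchain. The summed level of the 9 genes was 16.57 in replicate 3, against 12.72 to 14.58 elsewhere. That of the 8 skeletal muscle markers was 17.65 in replicate 3, against 9.26 to 9.45. That of the 5 liver markers, liver being another secretory tissue, was 13.54 in replicate 3, against 15.48, 8.66 and 8.95 in replicates 1, 2 and 4. Whether these cells have a part in the endoplasmic reticulum values was not tested.

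The heat-inducible members were present in every sample, and most were lowest in replicate 4. All 13 measured targets of heat shock factor 1 in the list were above background, and 8 of them had their lowest value in replicate 4, against 22.7% of all named genes above background. The median difference from the mean of the rest was -0.33 log2 units there, against 0.05 over all named genes above background, and 0.21, 0.02 and 0.10 in replicates 1, 2 and 3. Of the 30 probe sets of the list above background, 13 (43.3%) were lowest in replicate 4, against 20.9% of all probe sets above background. With the median over a gene's probe sets in place of the brightest one, the value in replicate 4 was -0.15 and that in replicate 1 was -0.03. The summed level over all named genes was also lowest in replicate 4, at 25.88 against 26.01 to 26.05 elsewhere.

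Hspa1b and Hspa1a, the stress-induced Hsp70 genes, were lowest in replicate 4. Hspa1b had 15.41, 15.07, 15.13 and 14.44 in replicates 1 to 4, and Hspa1a had 13.41, 13.20, 13.26 and 12.75. The 3 other samples lay within 0.34 log2 units for Hspa1b. Its dimmer probe sets, with 13.83, 14.07, 13.24 and 13.19 and with 12.85, 13.37, 12.22 and 12.42, were both highest in replicate 2. The coding sequences of the pair are nearly identical, so the signal of 1 gene may reach the probes of the other, and their values should be read as that of the pair. Dnajb1, the main J partner of inducible Hsp70, had 15.11, 14.71, 14.64 and 14.39. It was highest in replicate 1 on both of its probe sets. Hsp90aa1, the inducible cytosolic Hsp90, had 15.33, 15.17, 15.32 and 14.87, with replicate 4 lowest. Its dimmer probe sets, with 11.82, 10.95, 12.52 and 12.36 and with 10.95, 9.86, 12.08 and 11.19, were lowest in replicate 2 instead, and highest in replicate 3.

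Other members of this list had other orders. Hspa8, the constitutive cytosolic Hsp70, had 16.46, 16.15, 16.70 and 15.98, lowest in replicate 4, but 2 of its 4 probe sets were highest in that sample, at 15.36 and 13.42. Hsph1, an Hsp110 and nucleotide exchange factor of Hsp70, had 13.11, 12.47, 13.65 and 12.91, and was lowest in replicate 2. Dnajb4, found in heart and muscle, had 14.22, 13.41, 13.63 and 13.48. Dnaja1 split the samples into pairs, with 14.45 and 14.42 in replicates 1 and 3 and 13.91 and 13.96 in replicates 2 and 4. Bag3, the partner of Hspb8 in the disposal of damaged muscle proteins, had 12.90, 13.22, 12.87 and 12.88, so that replicate 2 alone stood apart. Hspb8 itself was highest in replicate 2 on its brightest probe set, at 12.07, 12.46, 11.72 and 11.50, while its dimmer ones, at 8.75, 8.93, 9.45 and 9.12 and at 7.87, 7.70, 8.28 and 8.20, were highest in replicate 3.

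Immediate early genes, which are induced within minutes of a stimulus, were not lowest together in replicate 4. Fos was, with 14.37, 14.32, 13.60 and 11.57 in replicates 1 to 4, whereas Egr1 had 14.63, 13.45, 11.35 and 13.50 and Atf3 had 11.47, 10.35, 9.82 and 9.94, both lowest in replicate 3. Jun was highest in replicate 4, at 12.30 against 11.44 to 11.64. Egr1, Atf3 and Fos had their highest value in replicate 1, where the heat-inducible median on the brightest probe sets was also highest. With the median over a gene's probe sets, the heat-inducible median was -0.03 in replicate 1 and 0.13 in replicate 3. Replicate 4 was the sample with the lowest Gapdh ratio, 18.8, and the lowest Actb ratio, 4.43, against 5.27 to 19.8. The part of RNA quality in the heat-inducible values was not tested.

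Repeats that heat shock factors bind occur in promoters of this list. A heat shock element of 3 units, which is GAA, TTC and GAA with any 2 bases between neighbours on either strand, was found for Hspd1, Hspe1 and Hsph1 in the list and for Dnajb6 outside it. The promoters of Hspd1, Hspe1 and Dnajb6 are shown for that element, and those of Hspa1b and Hspa1a, the pair with the lowest values in replicate 4, for an element of 2 units (GAA and TTC in either order, 2 bases apart). They are from RefSeq, GRCm38.p6, 5′ to 3′ on the strand of the gene, with matches in capitals. The positions are chr1:55088023-55088102 (minus strand), chr1:55088028-55088107 (plus strand), chr5:29735839-29735918 (plus strand), chr17:34959239-34959368 (minus strand) and chr17:34972157-34972286 (minus strand).
Hspd1: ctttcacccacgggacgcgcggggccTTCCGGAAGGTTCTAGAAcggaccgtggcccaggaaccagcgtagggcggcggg
Hspe1: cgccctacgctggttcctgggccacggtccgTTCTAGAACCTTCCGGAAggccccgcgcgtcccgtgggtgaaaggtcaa
Dnajb6: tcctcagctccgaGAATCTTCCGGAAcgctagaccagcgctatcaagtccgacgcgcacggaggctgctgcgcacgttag
Hspa1b: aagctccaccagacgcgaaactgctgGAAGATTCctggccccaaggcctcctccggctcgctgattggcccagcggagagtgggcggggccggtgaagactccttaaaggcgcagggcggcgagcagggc
Hspa1a: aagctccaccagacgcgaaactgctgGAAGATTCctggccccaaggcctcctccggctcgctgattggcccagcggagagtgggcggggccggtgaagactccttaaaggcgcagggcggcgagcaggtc
Hspd1 and Hspe1 lie head to head, and their windows cover the same stretch of chromosome 1 read from opposite strands, so the element counted for each is the same. It consists of 2 overlapping matches, from -144 to -127 in the count of Hspd1 and from -89 to -72 in that of Hspe1. The 130 bases shown for Hspa1a and Hspa1b differ at 1 position. Among the 11 genes of the list with a promoter in the table, 3 hold the element of 3 units and 10 that of 2 units. Over promoters this is 4 of 17 (23.5%) and 11 of 17 (64.7%), against 0.603% and 15.1% of all promoters. Every match of 3 units also contains matches of 2 units. In the 56 promoters of members in neither list the shares were 3.57% and 10.7%. The 2 windows of Hsph1 overlap and hold the same element of 3 units, and so do the 2 windows of Dnajb6. With the stretch shared by Hspd1 and Hspe1, these shares count some elements more than once. The list was written as targets of heat shock factor 1, so its excess over all promoters is no independent result.

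**Figure D3:**
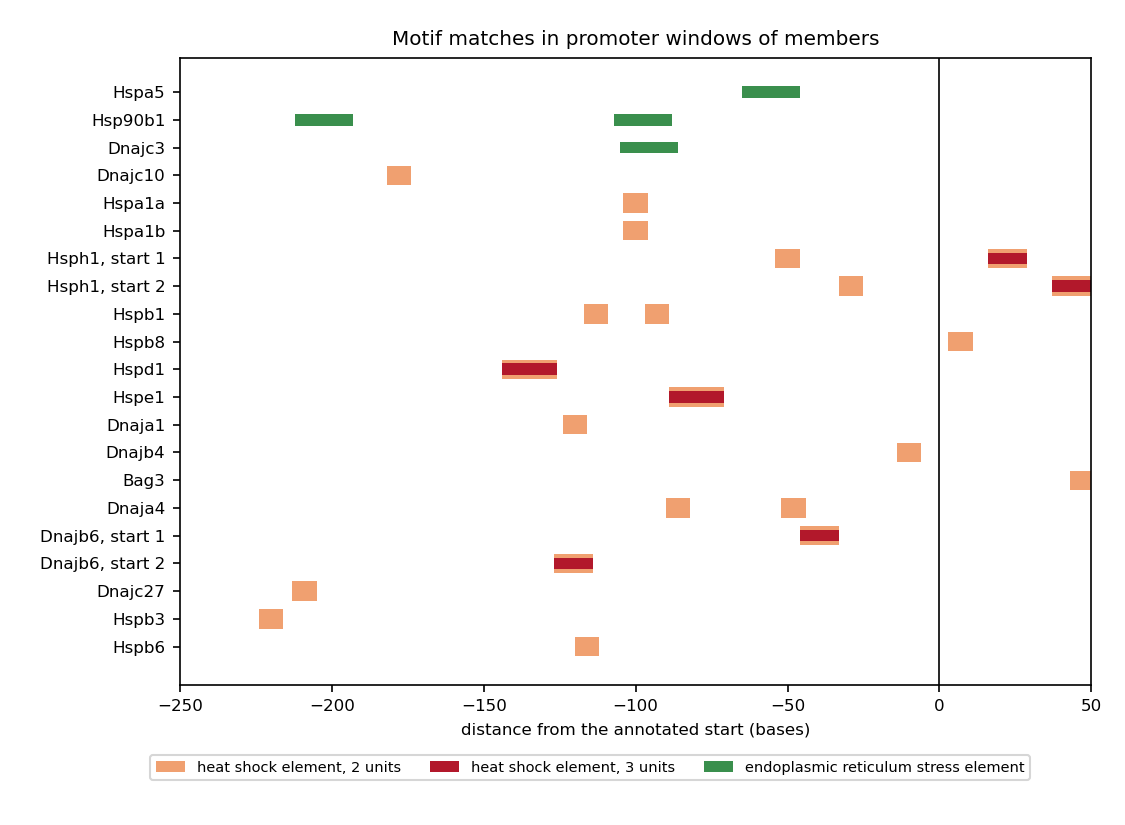
Positions of motif matches (bases from the annotated start, horizontal axis, start at the vertical line) in the promoter windows of members with a match, 1 row for each window. Green bars are the endoplasmic reticulum stress element, found in 3 genes, red bars the heat shock element of 3 units, found in 4, and orange bars that of 2 units, found in 16.

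Mitochondrial chaperones varied little between samples. All 6 measured genes were above background, with a median range of 0.42 log2 units, and all 6 were lowest in replicate 4, with a median difference from the mean of the rest of -0.30 log2 units, against 22.7% of named genes lowest there. This held on the brightest probe sets only. Of the 10 probe sets of the list above background, 6 were lowest in replicate 4, and the other 4 were not, 1 of Hspa9 being highest there. With the median over a gene's probe sets, Dnaja3 and Dnajc11 were not above background. Hspd1 and Hspe1, the large and the small ring of the mitochondrial chaperonin, come from the shared promoter shown above. Hspd1 had 14.40, 14.56, 14.48 and 14.26 in replicates 1 to 4 and Hspe1 had 12.88, 12.73, 12.79 and 12.47. Replicate 4 was lowest for each, and the order of the other samples differed between them. Hspa9, the Hsp70 that pulls proteins into mitochondria, averaged 14.42 ± 0.19, and its J partner Dnaja3 averaged 13.13 ± 0.17. Dnajc15, of the import motor, averaged 11.35 ± 0.22, and Dnajc11, of the inner membrane organising system, 10.61 ± 0.36 (SD, n = 4 each). Hspd1 and Hspe1 are also counted in the heat-inducible list.

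Among the genes with Hspb symbols, Hspb1 was nearly even across samples and Hspb2, Hspb3 and Hspb6 were highest in replicate 3. Hspb1, which guards actin filaments and is abundant in smooth muscle, had 14.70, 14.87, 14.55 and 14.88 in replicates 1 to 4, a range of 0.33. Hspb6, which takes part in the relaxation of smooth muscle and also occurs in striated muscle, had 8.23, 9.61, 10.45 and 8.87, with a mean of 9.29 ± 0.95 (SD, n = 4, limma adjusted p against background = 0.00107). Its order of samples was 3, 2, 4 and 1. Hspb3, a gene of striated muscle, had 4.96, 5.40, 8.86 and 5.17, over the threshold in replicate 3 alone, and Hspb2, its partner in muscle, had 5.74, 7.03, 8.70 and 6.88. Neither was above background over the 4 samples (limma adjusted p = 1 for each).

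Cryab, the alpha B crystallin gene that neighbours Hspb2 and belongs to the same protein family, was likewise highest in replicate 3, at 11.37, 10.99, 12.79 and 10.56. This was the sample with all 8 skeletal muscle markers over the threshold. The 7 smooth muscle markers were instead all highest in replicate 2 and all lowest in replicate 1. Hspb6, with its lowest value in replicate 1 and its second highest in replicate 2, ranked as the smooth muscle markers did at the low end. How far striated or smooth muscle has a part in the values of Hspb2, Hspb3 and Hspb6 was not tested.

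The remaining genes with Hspb symbols had patterns of their own. Hspb7, a small heat shock protein of heart and muscle, had 8.37, 6.95, 8.20 and 6.42, with replicates 1 and 3 over the threshold, and was not above background (limma adjusted p = 0.666). Hspb9, a gene of the testis, lay below the threshold in every sample, at 4.19, 4.21, 4.49 and 5.69. Hspb11, whose product works in the intraflagellar transport of cilia, had 12.18, 12.19, 10.80 and 12.07. Its low value in replicate 3 stood 1.27 log2 units under the next sample, against a spread of 0.12 among the other samples.

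**Figure D4:**
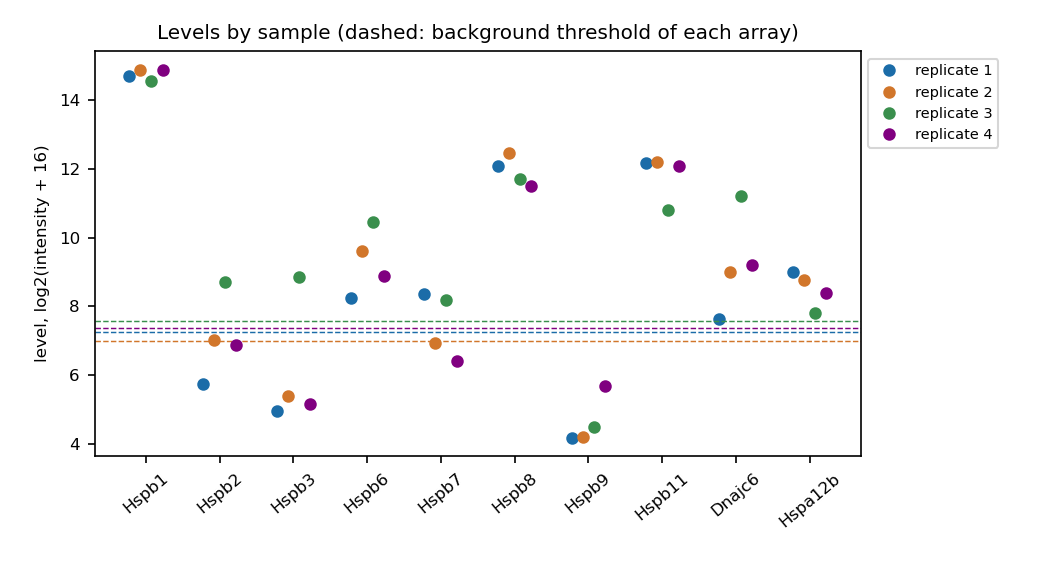
Levels in log2(intensity + 16) (vertical axis) of the 8 genes with Hspb symbols, Dnajc6 and Hspa12b, 1 point for each replicate, with dashed lines at the background thresholds of the arrays. Hspb3 lies over its threshold in replicate 3 alone (8.86), Hspb2, Hspb6 and Dnajc6 are highest there, and Hspb11 and Hspa12b are lowest there.

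Of the remaining Hsp70 and Hsp110 genes, the most variable were low in replicate 3. Hspa4l, an Hsp110 gene best known from testis, had 11.39, 12.07, 10.36 and 11.42, and its range of 1.71 was the third largest among the members above background. Hspa12b, a distant Hsp70 of endothelial cells, had 9.00, 8.77, 7.82 and 8.38 (limma adjusted p = 0.0117), a call that was lost without replicate 1, without replicate 2 and with either of the stricter backgrounds tried. Replicate 3 was also where the endothelial markers Cdh5 and Tek were lowest, at 9.84 and 9.59 against at least 11.73 and 10.88 elsewhere, while Kdr was not. Hspa4, the broadly expressed Hsp110, was highest in replicate 3 instead, at 14.16 against 13.33 to 13.52. Hspa14, which sits on ribosomes, averaged 12.05 ± 0.25, and Hspa2, needed for sperm formation in mice, 12.22 ± 0.46 (SD, n = 4 each). Hspa12a did not pass, with 7.94, 7.95, 7.97 and 7.02 (limma adjusted p = 0.262).

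Among cytosolic and synaptic J proteins, Dnajc6 differed most between samples. Dnajc6, known as auxilin, strips clathrin from vesicles and is best known from neurons. It had 7.64, 8.99, 11.22 and 9.21 in replicates 1 to 4, a mean of 9.26 ± 1.48 (SD, n = 4, limma adjusted p against background = 0.00503) and a range of 3.58. Replicate 3 was highest and replicate 1 barely over its threshold. The value rests on 1 of 4 probe sets, since the other 3 were not above background, and these were highest in replicate 2. Of the nerve markers, Sox10 was highest in replicate 3 at 8.89, Mbp was lowest there at 11.96, and S100b had 8.56 there and 8.60 in replicate 2. Their part in the Dnajc6 value was not tested. Dnajc5, which protects proteins of synaptic vesicles, had 14.26, 13.74, 13.83 and 13.85, with replicate 1 above the other samples. Its dimmer probe sets above background, with 12.89, 12.51, 12.32 and 13.22 and with 11.02, 9.67, 10.20 and 11.44, were highest in replicate 4 instead.

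Dnajb5, a J protein of striated muscle, had 8.34, 7.29, 8.86 and 8.03. It passed narrowly (limma adjusted p = 0.0332), and its probe set can match several transcripts. The call was lost without replicate 1, without replicate 3, without replicate 4 and with either of the stricter backgrounds tried. Without probe sets of that kind it was not above background, its mean minus the threshold being -1.79 log2 units. Dnajc18 had 9.87, 11.16, 10.45 and 11.22, lowest in replicate 1. Dnajc16, which was highest in replicate 4, had 11.13, 10.52, 10.61 and 11.81. Dnajc27 had 7.93, 9.17, 8.95 and 8.56, and Dnajc25 had 10.65, 10.12, 10.54 and 11.23.

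Of the other J proteins, 9 that varied by at most 0.65 log2 units on their brightest probe sets are given by mean. Dnaja2, the constitutive class A protein of the cytosol, averaged 15.15 ± 0.27, and Dnajb6, which prevents protein aggregation and carries the element shown above, 14.17 ± 0.18. Dnajc8, a splicing factor, averaged 14.24 ± 0.28, and Dnajc2, which sits on ribosomes with Hspa14, 12.43 ± 0.29. Dnajc13, of endosomes, averaged 12.27 ± 0.19, and Dnajc9, a chaperone of histones, 12.05 ± 0.17. Dnajb2 averaged 12.68 ± 0.14, Dnajc17, of the spliceosome, 12.50 ± 0.16, and Dnajc14 12.09 ± 0.22. These 9 genes had ranges from 0.31 to 0.65 log2 units. Dimmer probe sets above background varied more for Dnajc14, Dnajb6, Dnajc2, Dnajc8 and Dnaja2, with ranges of 1.77, 1.61, 1.42, 1.31 and 1.07. Dnajc30, Dnajc21, Dnajc4, Dnajb14, Dnaja4, Dnajc12, Dnajc24, Dnajc28 and Dnajb12 were also above background. On their brightest probe sets they had means from 8.90 to 12.06 and ranges from 0.39 to 1.04. Dnajc30 and Dnaja4 were within 0.65 too, at 0.39 and 0.63. Dimmer probe sets above background had ranges of 3.01 for Dnaja4 and 1.76 for Dnajb14. Dnajc22 was over the threshold in all 4 arrays, at 7.11 to 8.52, but did not pass the test (limma adjusted p = 0.138).

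**Figure D5:**
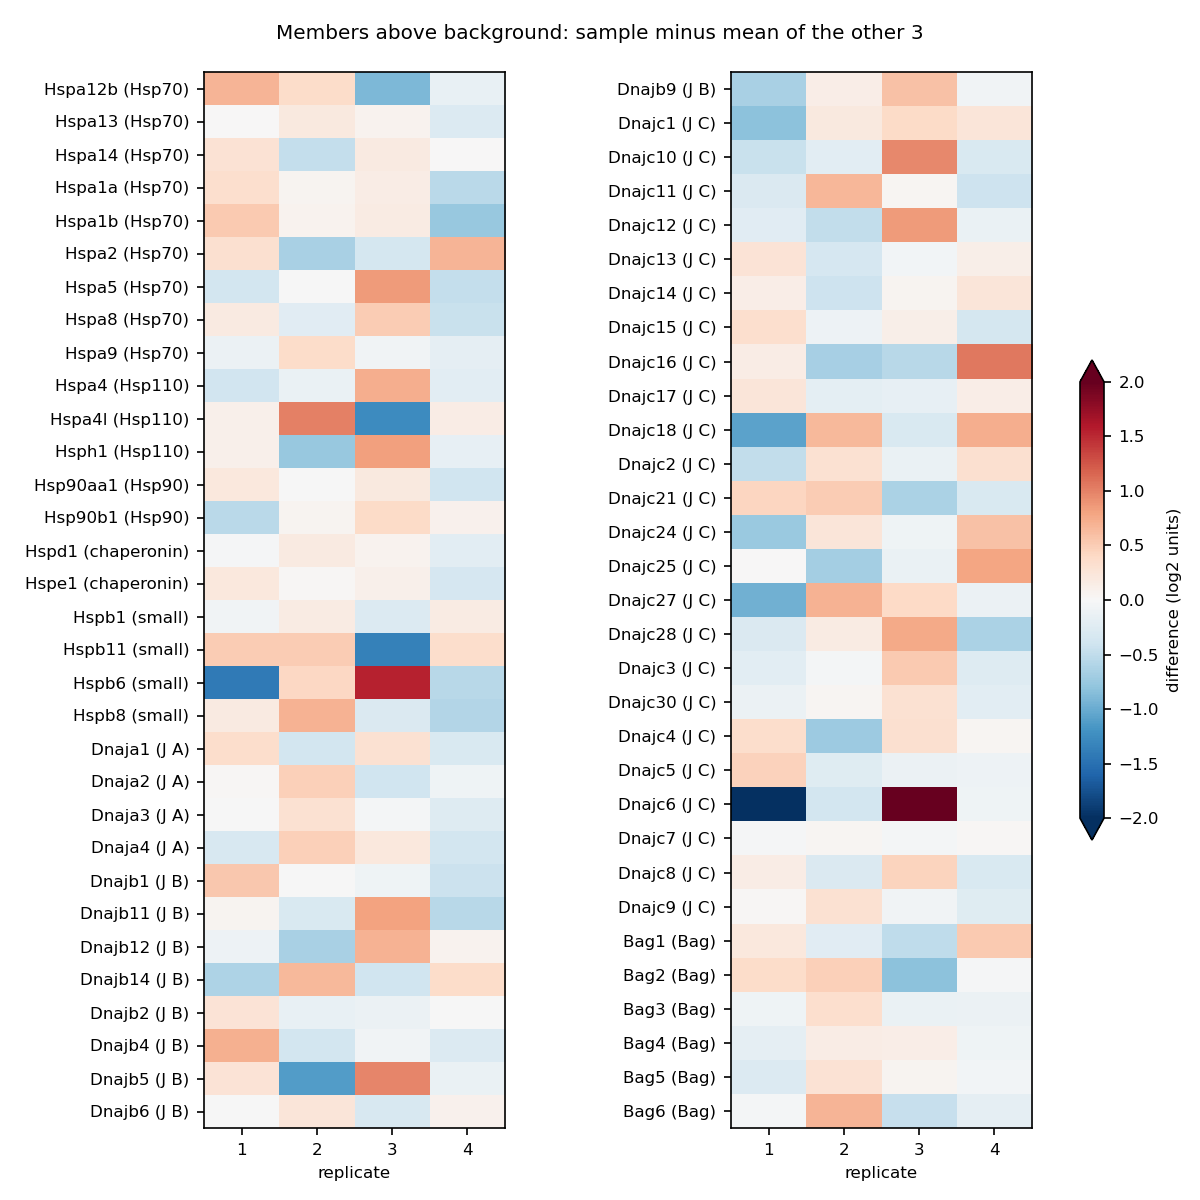
Each of the 63 members above background (rows, family in brackets) in each replicate (columns), coloured by the level minus the mean of the other 3 samples (log2 units, red higher, blue lower, saturated at 2). Dnajc6 and Hspb6 are the strongest rows, the endoplasmic reticulum genes such as Hspa5 and Dnajc10 are red in replicate 3, and Hspb11, Hspa4l and Hspa12b are blue there.

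All 6 Bag genes, whose products release clients from Hsp70 and steer them to other fates, were above background. On the brightest probe sets 5 of them were highest in replicate 2, against 25.3% of all named genes above background. Bag1, which links Hsp70 to the proteasome, was the exception with 13.93, 13.61, 13.40 and 14.17 in replicates 1 to 4. Bag2 had 11.26, 11.35, 10.38 and 10.97, with replicate 3 low. Bag6, which guards proteins bound for membranes, had 10.74, 11.27, 10.41 and 10.62. Bag4, with 11.52, 11.76, 11.76 and 11.59, and Bag5, with 11.09, 11.51, 11.33 and 11.25, were among the steadier members. Replicate 2 led for Bag4 by 0.0065 log2 units. The other probe set of Bag4 above background was highest in replicate 4, at 10.62, 10.70, 10.37 and 10.77. Bag3, Bag4 and Bag5 had ranges of 0.35, 0.24 and 0.42 log2 units, and Bag2 and Bag6 had 0.97 and 0.86.

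Hsf2, a heat shock factor active in development and gametogenesis, lay below the threshold in every sample, at 6.32, 6.16, 6.31 and 6.42, and its second probe set was not above background either. Members known from testis were mostly at background. Of the 9 genes of that list, including Dnajc5b and Dnajc5g, which fall outside the symbol rule, 2 were above background, Hspa2 and Hspa4l. Over all named genes the share above background was 57.9%. Hspa1l, which lies beside Hspa1a and Hspa1b on chromosome 17, had 4.13 to 4.39. Dnajb8 had 6.58 to 6.96 and Dnajb7, also a testis gene, 4.49 to 5.75. Dnajb3 had 7.61, 8.32, 6.54 and 8.83, under its threshold in replicate 3 alone (limma adjusted p = 0.304). Dnajb13, of sperm tails and motile cilia, had 6.52, 6.40, 7.07 and 7.95, over its threshold in replicate 4 alone. None of the 6 male germ cell markers was above background.

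The wider chaperone machinery was expressed too. Of 41 other chaperone and stress genes measured, 39 were above background, against 57.9% of all named genes. Cryaa, the alpha A crystallin of the lens, at 6.64 ± 0.69, and Hsf4, a heat shock factor of the lens, at 7.80 ± 0.65 (SD, n = 4 each), did not pass. The 8 subunits measured of the cytosolic chaperonin that folds actin and tubulin had a median range of 0.40 log2 units. Of the 8, 6 were lowest in replicate 4, against 22.7% of all named genes above background. This subset was also picked after the values were seen. Serpinh1, the collagen chaperone of the endoplasmic reticulum, had 11.55, 12.33, 10.24 and 11.16. It was lowest in replicate 3, as all 5 fibroblast markers were, among them Col1a2 and Col3a1 at 11.43 and 13.41 there against at least 13.15 and 15.37 elsewhere. The part of fibroblast content in the Serpinh1 value was not tested.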

How the data were processed

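Total RNA of 4 ureter samples went through 2 rounds of amplification, biotin labelling and hybridisation to Affymetrix MOE430 arrays, per the labels. As deposited, the values are intensities of probe sets, linear and not logged. The submitters' processing notes name GCOS without a version, and the summary algorithm is unknown here. Trimming 2% of probe sets at each end left a mean of 1500 on each array, so the deposited scaling was kept. Of the probe sets tested, 34945 carry 1 symbol in the platform annotation, 932 several and 9160 none, and 64 controls were left out. All 75 members' symbols were the same in RefSeq's gene table for GRCm38.p6, and 62 members had promoters there (80 windows, matched by gene ID).

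Thresholds were 7.25, 6.99, 7.57 and 7.36 in replicates 1 to 4, and 0 of the 86 receptor probe sets passed. limma 3.58.1 in R 4.3.3 was run over all 45037 probe sets with trended, robust variances and Benjamini-Hochberg adjustment, and was tested on simulated data. The spread test was an F test with 3 and 5.25 degrees of freedom over the 18427 probe sets above background. Differences of a sample are from the mean of the other 3.

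The members and lists were chosen with earlier results of these data known. Another 4 listed genes are not analysed here. Genes of the heat-inducible, endoplasmic reticulum, Hspb, Bag and Hsf groups and the 10 members with the largest ranges are given in every sample, and the rest by mean or count. Settings varied were the pseudocount (1 or 64), the normalization (quantile), the background (99th percentile, or median plus 3 median absolute deviations), the call (with no test), the filter before the spread test, the handling of a gene's several probe sets, and the samples (each left out in turn). Quantile normalization moved the arrays' medians over all probe sets by 0.20, 0.36, -0.36 and -0.09, but by less than 0.1 over those above background.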

Additional observations from a re-analysis of the deposited data

Results flagged for a closer look

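Of the 75 members, 6 had a highest or lowest sample far from the other samples by Dixon's criterion, which chance meets in about 1 in 20 groups. That is 8.0% of the members, against 6.85% of all 18193 named genes. Of these, 4 were above background. In replicate 3, Dnajc10 was high at 14.86, Hspb11 was low at 10.80, and Hspb3, which was not above background, was high at 8.86. Bag3 was high in replicate 2 at 13.22, by 0.32 log2 units over the next sample. Dnajc1 was low in replicate 1 at 10.94. Hspa12a, not above background, was low in replicate 4 at 7.02.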

How the results depend on the processing

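The number of members above background was 63, with 61 to 63 when 1 replicate was left out and 54 (strictest background, the receptor median with 3 median absolute deviations added) to 67 (no test) in the other settings, and 0 members passed the spread test in each setting. The number with a range of 2 log2 units or more was 2. It was 0 with that strictest background, 5 with the median over probe sets, and 0 to 3 with a replicate left out (0 without replicate 3, 1 without replicate 1 and 3 without replicate 2). With the median over probe sets, the median difference of the members was -0.14 in replicate 2 (0.06 as reported) and -0.014 in replicate 4 (-0.13), and that of the heat-inducible list in replicate 1 was -0.030 (0.21). Leaving out a replicate moved the members' value in replicate 2 between -0.049 and 0.14. With the strictest background, mean minus threshold was -0.44 for Dnajb12, -1.21 for Dnajb5, -0.69 for Dnajc27, -0.38 for Dnajc28, -0.074 for Dnajc6, -0.85 for Hspa12b and -0.048 for Hspb6. With the median over probe sets it was -1.64 for Dnajb5, -0.29 for Dnajc21 and -2.25 for Dnajc6. When probe sets open to several transcripts were dropped, it was -1.79 for Dnajb5. The cause was not tested. Calls above background were lost by 8 members with the median over probe sets (Dnaja3, Dnajb12, Dnajb5, Dnajc11, Dnajc17, Dnajc21, Dnajc27 and Dnajc6), by Dnajb5, Dnajc2 and Dnajc24 without probe sets shared by transcripts, and by Dnajb5 or Hspa12b in each of the 4 settings without a replicate. The count of endoplasmic reticulum members highest in replicate 3 stayed at 7 or 8 in each setting, with medians of 0.46 to 0.78. That of heat-inducible members lowest in replicate 4 was 8 to 11 with a replicate left out and 6 to 8 otherwise, and the median there was -0.19 after quantile normalization and -0.15 with the median over probe sets. No paired analysis was possible because all samples belong to 1 group.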
